A study of Mus musculus with 8 samples.

Results

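The genes described here encode splicing factors, the proteins that recognise introns in precursor messenger RNA and remove them, together with relatives of the same families. They were chosen by symbol, as genes whose name in the platform annotation starts with Srsf, Snrp, Snrnp, Sf3a, Sf3b, Prpf, Hnrnp, U2af or Lsm. Snrpn was left out, and a probe set with more than 1 symbol was not used. This gave 80 of the 18193 genes with a probe set of a single symbol, and 1 probe set stood for each gene, the one with the highest mean log2(signal + 16). Srsf7, Snrpa, Snrpd1, Snrpd2 and Lsm5 were among the genes not analysed here.

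Whole mouse embryos were measured at 2 stages on 1-colour oligonucleotide arrays, with 4 arrays for each stage. The blastocysts (embryonic day 4.5, 120 h after human chorionic gonadotropin) are hollow embryos with an outer trophectoderm and an inner cell mass. The 8-cell embryos (embryonic day 2.5, 66 h after the hormone) precede the first lineage separation. All embryos were wild type, of strain B6D2F1, and were cultured in KSOM medium from the 1-cell stage. The comparison asks how gene expression differs between the stages.

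Introns are removed by the spliceosome, which is built from small nuclear ribonucleoproteins (snRNPs) named after their RNAs. The U1 snRNP binds the start of an intron, U2AF and the U2 snRNP with its SF3A and SF3B subunits recognise the branch point and the end, and the U4/U6.U5 tri-snRNP then joins and is rearranged into the catalytic form. A ring of Sm proteins forms the core of most snRNPs, and a ring of LSm proteins holds the U6 RNA. SR proteins mostly promote, and hnRNP proteins often repress, the use of an exon. Early mouse embryos replace the RNA inherited from the egg by transcripts of their own genome, which have to be spliced.

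Each difference subtracts the 8-cell mean from the blastocyst mean of log2(signal + 16) and has its standard error (SE). The limma p-values were adjusted by the Benjamini-Hochberg method over all 13276 tested genes, and a gene was called at an adjusted p under 0.05. To be tested, a gene had to exceed each array's 40th percentile of signal on 4 or more of the 8 arrays. Of the 80 splicing factor genes, 79 were tested, and each of these was above that level on all 8 arrays, as were 73.9% of all tested genes. The exception was Srsf12, an SR protein gene, which stayed under that level on all 8 arrays. Signals were scaled per array by the authors, so a rise or fall is relative to the other signals of the array and is no amount per embryo. The labels do not say whether the 4 arrays per stage used RNA of different embryo pools, and p-values therefore describe only the scatter among these samples, possibly a technical one. In whole embryos, a smaller share of cells of a type and less RNA per cell cannot be told apart.

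The arrays fitted their stage labels. The markers of trophectoderm (5 of 5), primitive endoderm (3 of 3) and epiblast (2 of 2) were higher in blastocysts, and those of the earlier embryo (3 of 3) were lower. The 5 cumulus cell markers summed to 148 to 207 in blastocysts and 123 to 192 in 8-cell embryos, and the blood markers Hba-a1 and Ptprc to 23.6 to 80.2 and 10.4 to 25.2. Of these 7 genes, Cyp11a1 was higher (0.93, SE 0.36, adjusted p = 0.038 by limma) and the others were not called or not tested. The labelled RNA differed in the balance of transcript ends: the 3' minus 5' difference of the Actb control probe sets was 0.82 ± 0.11 log2 units in blastocysts and 2.42 ± 0.19 in 8-cell embryos, and that of Gapdh 1.36 ± 0.11 and 2.32 ± 0.26 (SD over 4 arrays; p = 0.0286 for both genes, the smallest an exact permutation test allows, two-sided). Over the 79 genes, arrays correlated at 0.988 to 0.995 among blastocysts, 0.984 to 0.992 among 8-cell embryos and 0.847 to 0.890 between the stages.

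Splicing factor genes changed about as often as other genes, but by less, and on the deposited scale more of them were lower than higher in blastocysts. Of the 79 tested, blastocysts had 17 (21.5%) at a higher and 36 (45.6%) at a lower level, and 26 did not pass. Among all tested genes 37.5% were higher and 34.2% lower, together 71.7% against 67.1% of the splicing factor genes. A call with at least a 2-fold change was made for 16 of 79 (20.3%), 5 higher and 11 lower, against 45.8% of all genes (25.4% higher and 20.4% lower). The differences ran from -2.53 to 2.02 with a median of -0.19, against a median of 0.02 and a range of -7.94 to 8.62 over all genes. The splicing factor genes were brighter, with median log2 signals of 11.8 in blastocysts and 11.88 in 8-cell embryos, against 8.82 and 8.35 over all tested genes. No comparison of the size of change with genes of like signal was made. The 4 blastocyst arrays were all above the 4 8-cell arrays for 18 genes and all below for 35, together 67.1% against 66.8% of all genes.

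The excess of lower genes depended on the scaling and on the probe sets. With the arrays scaled to their bacterial hybridisation controls (spike-in scaling), the median of all tested genes moved from 0.02 to 0.33. Then 23 splicing factor genes were higher (29.1%) and 13 lower (16.5%), against 42.3% and 22.5% of all genes. Of the calls 63.9% were higher, against 65.2% over all genes (on the deposited scale 32.1% and 52.3%). The splicing factor median was then 0.14, which is 0.20 below that of all genes, close to the 0.21 on the deposited scale. Values scaled to these hybridisation controls were not read as an amount of RNA per embryo either. The probe set types _x_at, _s_at and _a_at, named by the ending of the ID, can match several transcripts or genes. Without them 24 of 70 genes were higher (34.3%) and 21 lower (30%), against 37% and 33.5% of all genes. The median was then 0.03, against 0.03 over all genes. On the deposited scale 33 of the 79 genes were read by a probe set of that kind (3 higher, 20 lower) and 46 by another (14 higher, 16 lower). This split by type was not made over all genes. With the probe sets of each gene averaged, 24.1% of the 79 genes were higher and 36.7% lower, against 35.6% and 33.5% of all genes.

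**Figure D1:**
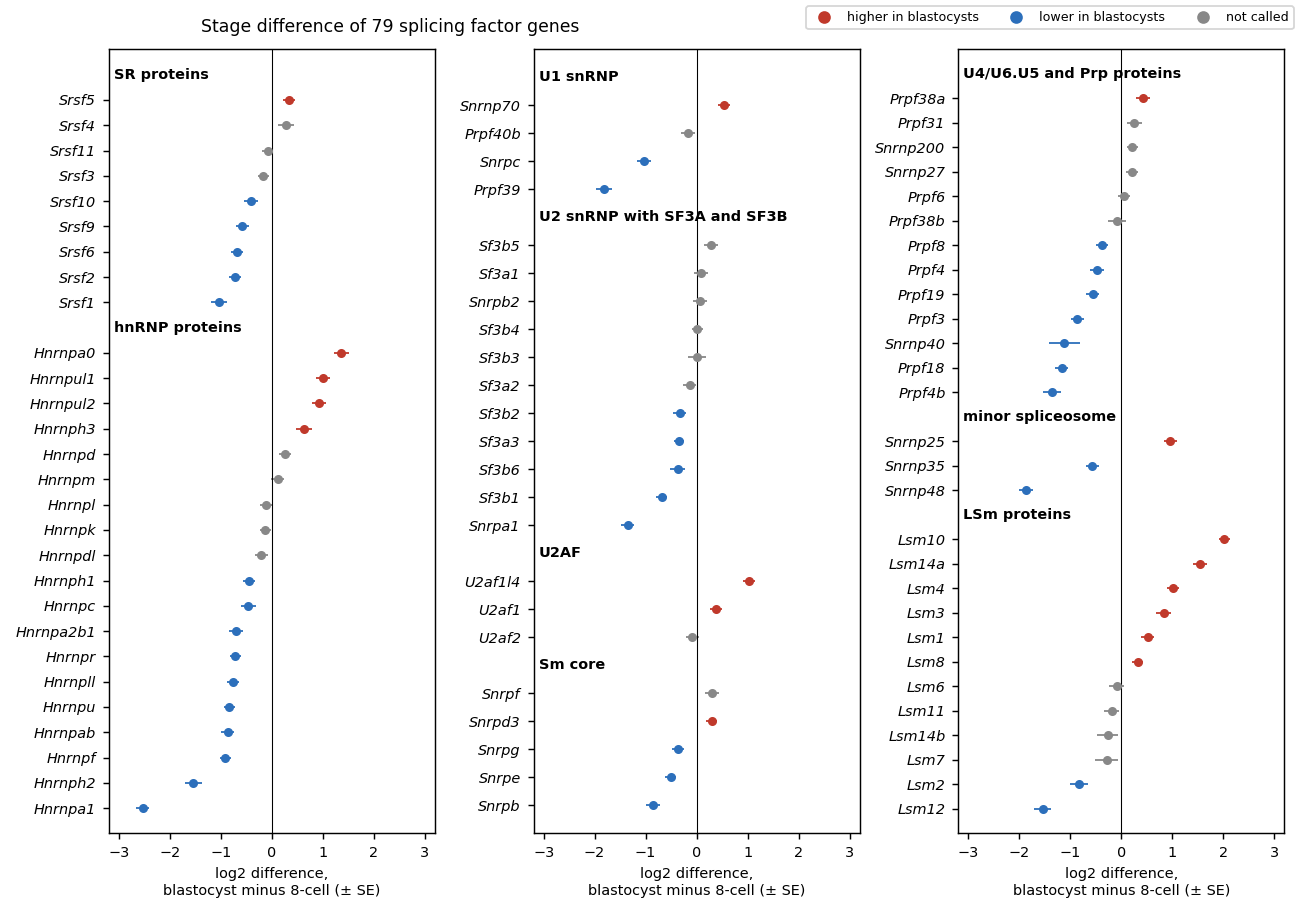
Log2 difference, blastocyst minus 8-cell, of each of the 79 tested splicing factor genes (points, with bars of 1 SE), grouped by role and ordered by difference. Red points are higher in blastocysts, blue points lower and grey points not called at an adjusted p under 0.05. LSm genes reach 2.02 and hnRNP genes run from -2.53 to 1.36.

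**Figure D2:**
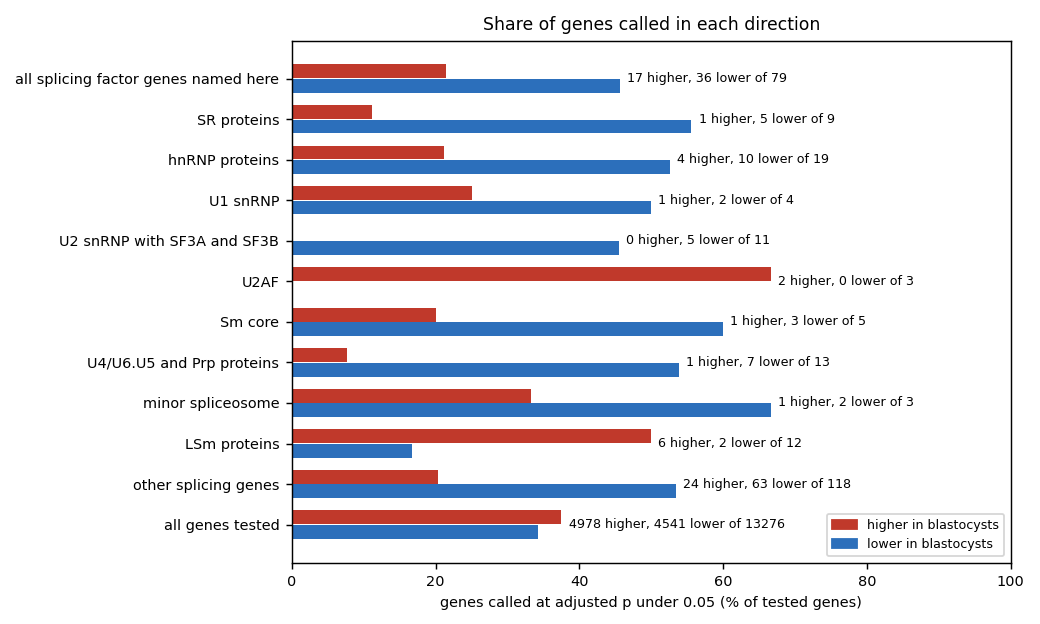
Share of tested genes called higher (red) or lower (blue) in blastocysts, in percent of the genes tested in each group, with the counts beside the bars. For all splicing factor genes the shares are 21.5% and 45.6%, and for all tested genes 37.5% and 34.2%.

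The windows of 250 bases before the annotated start of 4 genes are printed from RefSeq (GRCm38.p6), for the member with the largest rise (Lsm10), the one with the largest fall (Hnrnpa1) and 2 called genes whose window holds an ETS core (Prpf4b and Snrpc). Each is given 5' to 3' on the gene's strand. Capitals mark the motifs found on either strand: the ETS core CCGGAAG, the E-box CACGTG, the CCAAT box CCAAT and the GC box GGGCGG. No overlap between motifs occurred in these windows. The Lsm10 window lies at chr4:126096403-126096652 (+), the Hnrnpa1 window at chr15:103240147-103240396 (+), the Prpf4b window at chr13:34875279-34875528 (+) and the Snrpc window at chr17:27839837-27840086 (+).
Lsm10: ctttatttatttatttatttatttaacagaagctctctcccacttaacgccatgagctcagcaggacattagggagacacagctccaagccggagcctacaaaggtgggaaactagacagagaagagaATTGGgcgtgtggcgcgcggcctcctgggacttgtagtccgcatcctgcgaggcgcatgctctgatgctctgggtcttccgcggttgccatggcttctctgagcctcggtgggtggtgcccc
Hnrnpa1: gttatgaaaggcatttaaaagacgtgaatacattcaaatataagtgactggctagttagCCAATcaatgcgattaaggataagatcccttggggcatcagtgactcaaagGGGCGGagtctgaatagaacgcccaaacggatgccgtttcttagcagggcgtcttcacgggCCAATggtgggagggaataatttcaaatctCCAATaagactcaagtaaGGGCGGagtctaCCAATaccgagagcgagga
Prpf4b: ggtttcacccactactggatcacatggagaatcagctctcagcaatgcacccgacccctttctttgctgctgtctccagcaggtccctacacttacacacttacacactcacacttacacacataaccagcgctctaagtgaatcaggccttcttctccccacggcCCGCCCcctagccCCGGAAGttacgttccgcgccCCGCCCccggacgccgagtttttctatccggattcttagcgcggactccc
Snrpc: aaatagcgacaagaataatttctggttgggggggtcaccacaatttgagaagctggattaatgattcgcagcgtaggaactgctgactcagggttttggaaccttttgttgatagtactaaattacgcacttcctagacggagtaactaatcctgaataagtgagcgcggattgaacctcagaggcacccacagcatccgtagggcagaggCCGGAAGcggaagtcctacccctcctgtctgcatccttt

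A window could be matched by gene ID for 69 of the 80 genes. The ETS core, the letters at the centre of sites bound by ETS transcription factors, was in 18 of 69 (26.1%), against 13.1% of 10667 tested genes and 7.05% of all 27025 genes with a window. It was in 1 of 14 windows of higher genes (7.14%) and in 8 of 31 of lower genes (25.8%), against the 26.1% of all 69. The other windows with it belonged to genes not called or not tested. Whether these shares differed was not tested. The CCAAT box was in 43.5% of the splicing factor windows and 36.3% of those of tested genes (34.5% of all), the GC box in 65.2% and 57.5% (32.9%), and the E-box in 4.35% and 8.45% (6.05%). The Hnrnpa1 window held 4 CCAAT boxes and 2 GC boxes, and the Lsm10 window 1 CCAAT box. The median GC content was 58.8% for the splicing factor genes and 59.6% for tested genes. A match is a description of the letters and shows no binding.

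SR proteins bind exonic enhancer sequences through RNA recognition motifs and recruit the spliceosome through a domain rich in arginine and serine. Of 9 tested SR genes 5 were lower, 1 was higher and 3 did not pass, with a median of -0.40 (-0.06 with spike-in scaling, where 1 was higher and 1 lower). For this and each later group, the shares over all tested genes were 34.2% lower and 37.5% higher (22.5% and 42.3% with spike-in scaling). Srsf1, which also acts in mRNA export and translation, had signals of 6158, 6036, 7619 and 7496 in blastocysts, against 14971, 13602, 16895 and 11147 in 8-cell embryos. All 4 blastocyst arrays were below all 8-cell arrays (2.06-fold lower, difference -1.04, SE 0.16, adjusted p = 0.00022 by limma). The other lower genes were Srsf2 (-0.73, SE 0.12), Srsf6 (-0.69, SE 0.12), Srsf9 (-0.58, SE 0.13) and Srsf10 (-0.40, SE 0.14). On the mean of its probe sets Srsf6 was not called (-0.19, adjusted p = 0.222 by limma). Without the _x_at, _s_at and _a_at types Srsf2 gave -0.01 (adjusted p = 0.987 by limma). Of 8 SR genes tested that way 1 was higher and 3 lower, with a median of -0.04. Srsf10 encodes a factor that becomes a general splicing repressor after dephosphorylation. Its direction depended on the probe set: 2 of its 4 probe sets were higher (1.25 and 1.34), and the mean of its probe sets was higher too (0.64, adjusted p = 0.00086 by limma). Srsf10 lost its call without blastocyst replicate 1 or 3 or 8-cell replicate 1 or 2 (adjusted p up to 0.0688). With spike-in scaling Srsf1 stayed lower (-0.69), and Srsf2, Srsf6, Srsf9 and Srsf10 were not called (adjusted p = 0.158, 0.193, 0.400 and 0.847 by limma).

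Srsf5 was the SR gene that rose, at 9529, 9709, 9221 and 8205 in blastocysts, against 7399, 8062, 7262 and 6529 in 8-cell embryos. The stages did not overlap, but the rise was small (0.33, SE 0.12, adjusted p = 0.0307) and lost its call in 6 of the 8 runs that left out 1 array, those without blastocyst replicate 1, 2 or 3 or 8-cell replicate 1, 3 or 4 (adjusted p up to 0.0803). Srsf3, a short SR protein that regulates its own transcript, differed by -0.17 (SE 0.11, adjusted p = 0.175), although its 4 blastocyst arrays were below all 8-cell arrays. Srsf4 did not pass (0.27), but was called without 8-cell replicate 4 (adjusted p = 0.0302). Srsf11 did not pass (-0.08).

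The hnRNP proteins coat nascent transcripts and influence splice site choice, RNA stability and export. Of 19 tested genes 10 were lower, 4 higher and 5 did not pass, with a median of -0.45 (-0.10 with spike-in scaling, where 5 were higher and 4 lower). Without probe sets of the _x_at, _s_at and _a_at types the direction turned, with 9 of 18 genes higher, 5 lower and a median of 0.38. Hnrnpa1, encoding a repressor that binds splicing silencers, had the largest fall among the splicing factor genes. Its signals were 1732, 2160, 2113 and 2076 in blastocysts, against 11878, 13029, 12137 and 10052 in 8-cell embryos. All blastocyst arrays were far below the 8-cell arrays. The gene was 5.79-fold lower (-2.53, SE 0.13, adjusted p = 1.81e-07), and -2.18 with spike-in scaling. A dimmer probe set of the gene went the other way, as given below.

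The G-tract binding proteins of the H and F family were split. Hnrnph2, on the X chromosome, was at 1444 ± 299 in blastocysts and 4188 ± 483 in 8-cell embryos (SD, n = 4 each; -1.54, SE 0.17). Hnrnpf (-0.91, SE 0.12) and Hnrnph1 (-0.45, SE 0.13) were also lower, and Hnrnph3 was higher (0.64, SE 0.16, adjusted p = 0.00506 by limma). Hnrnph1 was not called with spike-in scaling (-0.10). Other lower genes were Hnrnpab (-0.87, SE 0.13), the scaffold protein gene Hnrnpu (-0.84, SE 0.10), Hnrnpll (-0.77, SE 0.12), Hnrnpr (-0.72, SE 0.11), Hnrnpa2b1 (-0.71, SE 0.14) and Hnrnpc (-0.46, SE 0.14). Of these 6, only Hnrnpab was called with spike-in scaling (-0.52, adjusted p = 0.0365). Hnrnpc binds uridine tracts and can mask cryptic exons.

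Hnrnpa0 rose most in this family, at 5098, 5176, 4990 and 4957 in blastocysts, against 1770, 1532, 2429 and 2212 in 8-cell embryos. The lowest blastocyst array was above the highest 8-cell array (2.57-fold, 1.36, SE 0.16, adjusted p = 3.04e-05 by limma). The related genes Hnrnpul1 (1.00, SE 0.14) and Hnrnpul2 (0.92, SE 0.14), named for their likeness to hnRNP U, were higher while Hnrnpu was lower. Hnrnpk, which binds cytosine-rich RNA and DNA, was at 12768 ± 650 in blastocysts and 14030 ± 1030 in 8-cell embryos (-0.13, SE 0.11, adjusted p = 0.297). Hnrnpd (0.25), Hnrnpm (0.11), Hnrnpl (-0.11) and Hnrnpdl (-0.21) did not pass either. The 4 blastocyst arrays of Hnrnpd were nevertheless above all 8-cell arrays, and it was called higher with quantile normalization (adjusted p = 0.0187) and spike-in scaling (adjusted p = 0.0261).

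Among the 4 tested U1 genes 2 were lower, 1 higher and 1 did not pass. Snrnp70, encoding a protein that binds the U1 RNA, had 3369, 3668, 3375 and 3434 in blastocysts, against 2897, 2183, 2212 and 2294 in 8-cell embryos. Its stages did not overlap (1.45-fold, 0.54, SE 0.13, adjusted p = 0.00351). Snrpc, encoding the U1 subunit that touches the splice site helix, was lower (-1.03, SE 0.14). Prpf39, an accessory factor of the U1 snRNP, had 163, 213, 157 and 163 in blastocysts, against 814, 630, 554 and 619 in 8-cell embryos (3.51-fold lower, -1.81, SE 0.15, adjusted p = 4e-06 by limma). Both lower genes were called with spike-in scaling as well (-0.68 and -1.48). Prpf40b, a relative of a yeast U1 protein, did not pass (-0.17).

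For the U2 snRNP with SF3A and SF3B, 5 of 11 genes were lower, none was higher and 6 did not pass, with a median of -0.14 (0.08 with quantile normalization and 0.22 with spike-in scaling). In the same test 37.5% of all genes were higher. Snrpa1, encoding a protein that binds the U2 RNA together with that of Snrpb2, had 3643, 4709, 4800 and 3835 in blastocysts, against 10422, 10318, 11182 and 11132 in 8-cell embryos. It was 2.55-fold lower, with all blastocyst arrays below (-1.35, SE 0.13, adjusted p = 9.24e-06), and stayed called with spike-in scaling (adjusted p = 0.00156). Sf3b1, the large subunit that clamps the branch point helix, was at 10234 ± 573 in blastocysts and 16501 ± 970 in 8-cell embryos (SD, n = 4 each; -0.69, SE 0.11, adjusted p = 0.000272 by limma; 0.181 with spike-in scaling).

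The smaller falls of Sf3b6 (-0.37), Sf3a3 (-0.35) and Sf3b2 (-0.33) were not called with spike-in scaling, where their differences lay between -0.02 and 0.02. Sf3b2 lost its call in 6 of 8 runs that left out 1 array (the exceptions being blastocyst replicate 4 and 8-cell replicate 4), with adjusted p up to 0.104. Sf3b6 also lost its call in 6 of 8 (the exceptions being blastocyst replicate 2 and 8-cell replicate 4), with adjusted p up to 0.125. Sf3b5 did not pass (0.28, adjusted p = 0.104), but was called without blastocyst replicate 3 or 8-cell replicate 3 (lowest adjusted p = 0.0476). Sf3a1 (0.08), Snrpb2 (0.07), Sf3b4 (0.02), Sf3b3 (0.01) and Sf3a2 (-0.14) did not pass.

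U2AF recognises the end of the intron, with a large subunit on the pyrimidine tract and a small one on the terminal AG. The small subunit genes were higher and the large one was not called. U2af1l4, which encodes a shorter relative of the small subunit, had 1394, 1542, 1477 and 1689 in blastocysts, against 818, 757, 744 and 658 in 8-cell embryos (2.03-fold, 1.02, SE 0.12, adjusted p = 3.62e-05 by limma). U2af1 was at 5654 ± 262 in blastocysts and 4365 ± 452 in 8-cell embryos (0.38, SE 0.12, adjusted p = 0.0162). U2af2, the large subunit gene, differed by -0.08 (SE 0.13, adjusted p = 0.571), and by 0.27 with spike-in scaling. Whether the small subunit genes differed from U2af2 was not tested.

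The Sm proteins form the ring around the snRNP RNAs. Of 5 tested genes 3 were lower, 1 higher and 1 did not pass. Snrpb, whose products SmB and SmB' arise by alternative splicing, had 7285, 7682, 6796 and 7902 in blastocysts, against 12942, 13007, 16619 and 11799 in 8-cell embryos (1.82-fold lower, -0.86, SE 0.14, adjusted p = 0.000266 by limma). Snrpe (-0.51, SE 0.11) and Snrpg (-0.36, SE 0.12) were lower too, but not with quantile normalization (-0.24 and -0.11) or spike-in scaling (-0.16 and -0.01). Without the _x_at, _s_at and _a_at types 3 Sm genes were tested, 1 higher and 0 lower, with a median of 0.30. Snrpg then gave -0.01 (adjusted p = 0.934 by limma), and Snrpb and Snrpe had no probe set left. Snrpd3 was at 7392, 7120, 6667 and 7101 in blastocysts, against 5633, 6264, 5753 and 5314 in 8-cell embryos. Its stages did not overlap (0.30, SE 0.11, adjusted p = 0.0294 by limma), but the call was lost in 6 of 8 runs that left out 1 array, all but those without blastocyst replicate 3 or 8-cell replicate 2 (adjusted p up to 0.0724). Snrpf did not pass (0.30, adjusted p = 0.0768), but was called without 8-cell replicate 2 (adjusted p = 0.0412).

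Of 13 tested genes of the U4/U6.U5 tri-snRNP and other Prp proteins 7 were lower, 1 higher and 5 did not pass, with a median of -0.38 (-0.03 with spike-in scaling, where 4 were higher and 2 lower). Prpf4b, encoding a kinase of tri-snRNP proteins, had 1130, 1191, 1282 and 889 in blastocysts, against 2245, 3462, 2588 and 3357 in 8-cell embryos (2.55-fold lower, -1.35, SE 0.18, adjusted p = 8.74e-05). Prpf18, a factor of the second catalytic step, fell by 1.17 (SE 0.13). These were the lower genes of the group with spike-in scaling (adjusted p = 0.00383 and 0.00542). Snrnp40, of the U5 snRNP, had wide spread and overlapping stages, at 1888 ± 698 in blastocysts and 4122 ± 1530 in 8-cell embryos (SD, n = 4 each; -1.12, SE 0.30).

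The U4/U6 protein genes Prpf3 (-0.86, SE 0.13) and Prpf4 (-0.47, SE 0.14), the ubiquitin ligase gene Prpf19 (-0.56, SE 0.13) and Prpf8, encoding the protein at the catalytic centre (-0.38, SE 0.11), were lower on the deposited scale. None of these 4 was called with spike-in scaling (adjusted p = 0.0542 to 0.930 by limma). Prpf38a, which acts in spliceosome activation, had 3490, 3736, 2928 and 2963 in blastocysts, against 2838, 2157, 2324 and 2411 in 8-cell embryos. It was higher without overlap (0.43, SE 0.14, adjusted p = 0.018), but not called without blastocyst replicate 2 (adjusted p = 0.0556). Snrnp200, the helicase that unwinds U4 from U6, differed by 0.22 (SE 0.12, adjusted p = 0.117), but was called higher with quantile normalization (0.35, adjusted p = 0.0159) and spike-in scaling (0.57, adjusted p = 0.0364). Snrnp27 (0.21) did not pass but was called higher under both as well (adjusted p = 0.0336 and 0.0461), and Prpf31 (0.25) with spike-in scaling (adjusted p = 0.0268). Prpf6 (0.05, SE 0.12) and Prpf38b (-0.09) did not pass.

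The minor spliceosome removes a rare class of introns, and its U11/U12 snRNP contains Snrnp25, Snrnp35 and Snrnp48. Each of these 3 genes was called, in both directions, as were 71.7% of all tested genes. Snrnp48 had 892, 955, 822 and 1047 in blastocysts, against 3728, 3626, 3636 and 2792 in 8-cell embryos (3.65-fold lower, -1.87, SE 0.14, adjusted p = 1.58e-06 by limma). Another probe set of Snrnp48 was higher (0.95), and its remaining probe sets gave -1.50 and 0.46. Without the _x_at, _s_at and _a_at types 2 of the 3 genes were higher and 1 lower. Snrnp35 was lower by -0.57 (SE 0.13), and by -0.22 with spike-in scaling, where it was not called. Snrnp25 had 2537, 2277, 2116 and 2087 in blastocysts, against 1286, 969, 1171 and 1172 in 8-cell embryos. The lowest blastocyst array was above the highest 8-cell array (1.95-fold, 0.97, SE 0.13, adjusted p = 9.37e-05).

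**Figure D3:**
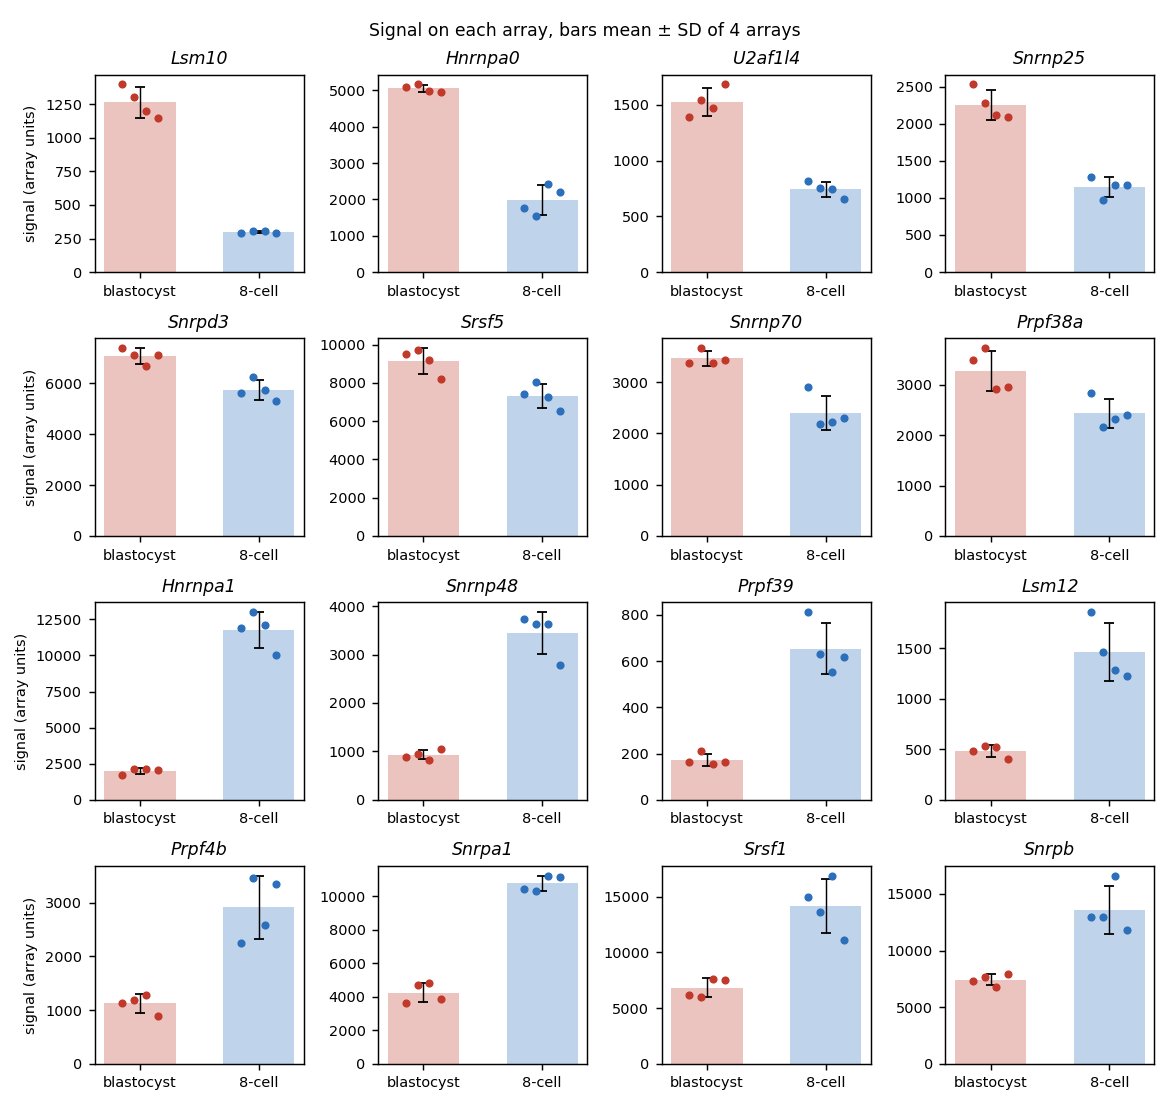
Signal of 16 genes on each array (points, array units), with bars for the mean and black lines for the SD of the 4 arrays of a stage; blastocysts are red and 8-cell embryos blue. The upper 8 genes are higher in blastocysts, from Lsm10 (4.05-fold) to Snrpd3 (1.23-fold), and the lower 8 are lower, with Hnrnpa1 at 5.79-fold.

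LSm proteins resemble Sm proteins and serve several RNAs, so the list reaches beyond splicing. Among them, 6 of 12 LSm genes (50%) rose, 2 (16.7%) fell and 4 did not pass, against 37.5% higher and 34.2% lower over all tested genes. The LSm median was 0.12 (0.03 with quantile normalization, where 5 were higher and 4 lower). Whether the LSm group differed from the other groups or from all genes was not tested. Lsm10 had 1401, 1302, 1202 and 1148 in blastocysts, against 293, 306, 304 and 291 in 8-cell embryos (4.05-fold, 2.02, SE 0.11, adjusted p = 2.51e-07 by limma). This was the largest rise among the splicing factor genes. Lsm10 and Lsm11 replace Sm proteins in the U7 snRNP, which processes the ends of histone transcripts, and Lsm11 did not pass (-0.19, SE 0.15, adjusted p = 0.289).

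Of the ring on U6 RNA, Lsm4 (1.01, SE 0.12), Lsm3 (0.83, SE 0.14) and Lsm8 (0.32, SE 0.11) were higher, Lsm2 was lower (-0.83, SE 0.17), and Lsm6 (-0.09) and Lsm7 (-0.29) did not pass. Lsm8 was not called without blastocyst replicate 1, 2 or 3 or 8-cell replicate 1 or 4 (adjusted p up to 0.0639), and Lsm2 was not called with spike-in scaling (-0.49). Lsm1, which replaces Lsm8 in the cytoplasmic ring of mRNA decay, was at 854 ± 81.5 in blastocysts and 592 ± 49.5 in 8-cell embryos (0.52, SE 0.12, adjusted p = 0.00358; 0.0590 with quantile normalization). Lsm14a, a protein of processing bodies that store untranslated mRNA, was higher (1.54, SE 0.13), while its relative Lsm14b did not pass (-0.27, SE 0.21). For Lsm14a the brightest probe set left after removal of the _x_at, _s_at and _a_at types gave 0.33 (adjusted p = 0.103). A dimmer one that was also left was called higher (0.51, adjusted p = 0.0362 by limma over all probe sets). Lsm12 had 485, 530, 527 and 402 in blastocysts, against 1860, 1465, 1285 and 1229 in 8-cell embryos (2.92-fold lower, -1.55, SE 0.16, adjusted p = 1.7e-05).

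Several genes were read by more than 1 probe set, and many SR and hnRNP genes are known to make alternative transcripts. For 54 genes, 118 pairs of the brightest and another tested probe set could be compared within each array, with a test of the ratio adjusted over all 10435 such pairs of the table. The ratio changed between the stages in 77 pairs (65.3%), against 55.5% of all pairs. In 16 pairs of 12 genes (13.6%) both probe sets were called, in opposite directions, against 7.29% of all pairs. In 15 of these 16 pairs the brightest probe set was lower and the other higher in blastocysts. Among all such opposed pairs of the table the other probe set was the higher one in 49.5%, and among all pairs with a changed ratio it was the relatively higher one in 45.4%, against 52 of 77 (67.5%) for splicing factor genes. In an opposed pair the direction follows from the brightest probe set, which was lower for 36 and higher for 17 splicing factor genes. Pairs of 1 gene share that probe set, so the 15 of 16 is not independent of those counts.

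Srsf1 showed the widest split. A dimmer probe set had 1544, 1419, 1786 and 1686 in blastocysts, against 276, 314, 321 and 419 in 8-cell embryos (2.23, SE 0.16, adjusted p = 9.75e-07 over all probe sets). The brightest probe set had fallen, so that the ratio changed by 3.27 (SE 0.23, adjusted p = 5.7e-06 by limma). Of the other 5 probe sets of Srsf1, 4 were lower (-1.05 to -1.94) and 1 was not called (-0.12).

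For Hnrnpa1, a dim probe set was at 113, 78.5, 111 and 107 in blastocysts, against 65.9, 86.4, 48.2 and 65.6 in 8-cell embryos. Its stages overlapped (0.53, SE 0.17, adjusted p = 0.0216), while the remaining probe set fell like the brightest (-2.26, SE 0.13). For Snrnp48, another probe set had 1548, 1564, 1571 and 1469 in blastocysts, against 745, 720, 892 and 816 in 8-cell embryos (0.95, SE 0.12), so the direction of this gene differed between its probe sets. The other genes with opposed probe sets were Hnrnpc (1.36 against -0.46 on the brightest), Hnrnpu (0.36 to 0.44 against -0.84), Srsf10 (1.25 and 1.34 against -0.40), Srsf6 (0.80 against -0.69), Prpf4b (0.66 and 1.45 against -1.35), Prpf39 (0.49 against -1.81), Prpf19 (0.91 against -0.56), Snrnp40 (0.47 against -1.12) and Prpf38a (-0.74 against 0.43, the exception in direction). Among these, Hnrnpu (-1.99), Prpf39 (-1.085), Prpf4b (-0.71) and Srsf6 (-0.72) also had another probe set that differed in the direction of the brightest.

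Where the brightest probe set was not called, the ratio changed in 23 of 38 pairs, against 55.5% of all pairs whatever the call of their brightest probe set. In these 38 pairs the other probe set was higher in 14, lower in 11 and not called in 13. The same counts were not made over all genes. Hnrnpk had 5836, 5936, 6168 and 6237 on another probe set in blastocysts, against 2811, 2641, 2632 and 2438 in 8-cell embryos (1.20, SE 0.11, adjusted p = 8.36e-06 over all probe sets). Snrnp200 gave 1.72 (SE 0.19) on its other probe set. Downward, another probe set gave -1.10 for Prpf6 and -1.16 for Prpf31. Srsf3 (1.12, SE 0.15, and -0.82, SE 0.20) and Hnrnpdl (1.31, SE 0.13, and -1.48, SE 0.37) had probe sets called in both directions. These examples were chosen after their values were seen. The annotation used here gives no position of a probe set in its transcript. The 5' minus 3' ratio of the control probe sets, which moves with the stage, changed by 1.60 for Actb and 0.96 for Gapdh; its part in these ratios was not tested. Counted over all 197 tested probe sets of the splicing factor genes, 50 (25.4%) were higher and 78 (39.6%) lower, against 35.3% and 33.6% of 23726 probe sets.

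**Figure D4:**
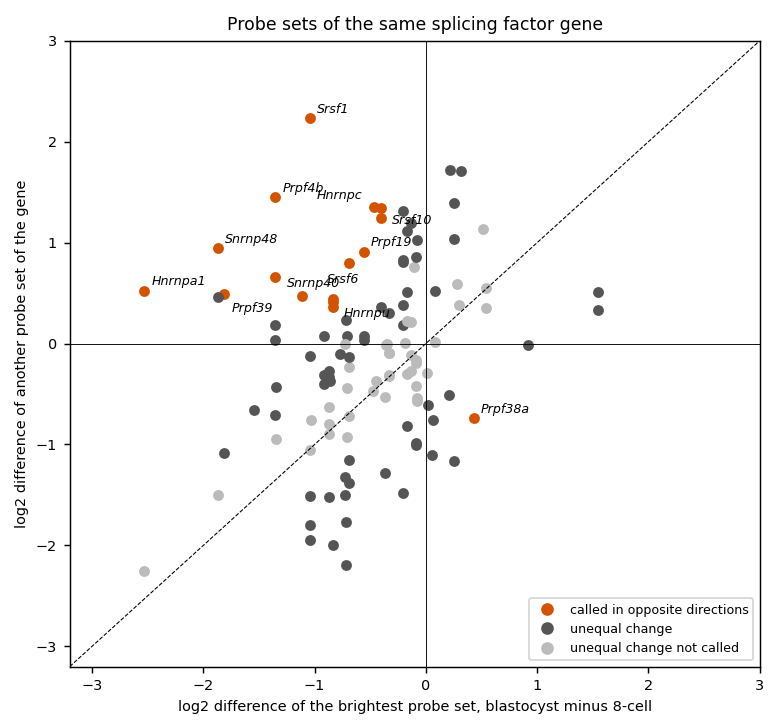
Log2 difference, blastocyst minus 8-cell, of the brightest probe set of a gene (horizontal) and of another probe set of the same gene (vertical), for 118 pairs of 54 genes; the dashed line marks equal change. Orange points are the 16 pairs called in opposite directions, of which 15 lie in the upper left, dark points other pairs with an unequal change and light points pairs without one.

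Other genes of the pathway, listed by role and not by name, were mostly lower. Of 118 tested genes of 6 such lists 63 (53.4%) were lower and 24 (20.3%) higher, with a median of -0.39, against 34.2% and 37.5% of all genes. Without the _x_at, _s_at and _a_at types 52 of 102 were lower and 21 higher, with a median of -0.355, against 33.5% and 37% of all genes. With spike-in scaling 32 of the 118 genes were lower and 33 higher, with a median of -0.04. Over all genes that setting gave 22.5% lower and 42.3% higher, with a median of 0.33. For snRNP assembly, in which the SMN complex loads Sm rings onto RNA, 10 of 15 genes were lower and none was higher (median -0.79, or -0.43 with spike-in scaling, where 6 were lower and 2 higher). Gemin5, which recognises the snRNA, was at 1837 ± 135 in blastocysts and 7315 ± 577 in 8-cell embryos (SD, n = 4 each) and fell most in this list (-1.98, SE 0.12, adjusted p = 3.51e-07 by limma).

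The list of Prp19 and catalytic complex proteins had 13 of 24 genes lower and 4 higher (8 and 6 with spike-in scaling). Crnkl1, a scaffold protein of the catalytic spliceosome, was at 751 ± 76.6 in blastocysts and 8677 ± 730 in 8-cell embryos (-3.51, SE 0.12), and Isy1 rose by 1.08 (SE 0.12). Of the remaining proteins of the snRNPs and early complexes 17 of 24 were lower and 2 higher (7 and 4 with spike-in scaling), with the minor spliceosome gene Rnpc3 at -1.80 (SE 0.22) and Dnajc8 at 0.36 (SE 0.14). The exon junction complex and its partners had 5 of 8 lower and 1 higher (2 and 1 with spike-in scaling), with Acin1 at -1.53 (SE 0.15) and Srrm1 at 0.36 (SE 0.11).

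The kinases that phosphorylate SR proteins were split. Of 8 genes (3 higher and 3 lower with spike-in scaling) 3 were lower, Dyrk1a (-2.45, SE 0.12), Srpk2 (-1.67, SE 0.19) and Srpk1 (-1.49, SE 0.11), and 2 were higher, Clk4 (0.70, SE 0.20) and Clk2 (0.44, SE 0.11). Other splicing regulators had 15 of 39 genes higher and 15 lower, but 17 higher and 6 lower with spike-in scaling. The muscleblind gene Mbnl3 rose most (3.48, SE 0.29), at 7228 ± 365 in blastocysts and 688 ± 320 in 8-cell embryos, and Syncrip, encoding an RNA-binding protein also called hnRNP Q, fell most (-1.96, SE 0.17).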

How the data were processed

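The authors deposited a linear signal intensity per array for 45101 probe sets and 8 arrays. Per the labels' protocols, total RNA was isolated with a kit, amplified by a small-sample assay and labelled with biotin; the summarising software was not given in the sources used here. Column values show that the authors scaled each array to a mean of 500 after removal of the outer 2%. Control probe sets (64) were left out of gene tests. The platform annotation gave 1 symbol to 34945 probe sets and several to 932, and 9160 were not listed.

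Values became log2(signal + 16). The array medians differed by 0.19, so the scale was kept. Blastocysts were compared with 8-cell embryos in limma (lmFit, eBayes, no covariates). All tested genes were fitted together. Role groups, related gene lists and fixed genes were chosen with earlier results of these data known. Genes with a value for every array are, in each role group, the called ones with the largest rise and fall; called genes with the largest changes of all 79, genes with opposed probe sets, fixed genes and the extremes of each related list are named with their difference. Other probe sets given by array were chosen after their values were seen. Alternatives changed the scaling, filter, added constant, probe set, variance model, replicate block or arrays used; the spike-in scaling was taken over from an earlier analysis that had seen these data. Simulated data had 13000 features, of which 200 changed. Of changes of 0.5, 1 and 2 log2 units, 4.33%, 51.5% and 90.1% were recovered, and 4.91% of calls were false. In the real data 71.7% of tested genes were called. The recovered shares depend on the share of changed features and do not carry over to the real data. The number of arrays limits the precision. R 4.3.3, limma 3.58.1, data.table (1.17.8), Python 3.11.15 and matplotlib 3.10.9 were used.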

Additional observations from a re-analysis of the deposited data

Results flagged for a closer look

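In 158 groups of 4 arrays (79 genes at both stages), 6 had an array whose gap to the nearest of the others exceeded Dixon's critical value at the 95% level. Chance flags about 1 in 20 such groups. In blastocysts, Lsm2 was at 339 on replicate 1, against 424 to 438 on the others, and Prpf39 at 213 on replicate 2, against 157 to 163. Sf3b5 was at 7827 on blastocyst replicate 3, against 9798 to 10158, and Hnrnpm at 6535 on replicate 4, against 5048 to 5142. In 8-cell embryos, Srsf3 was at 7074 on replicate 1, against 6119 to 6139, and Snrnp48 at 2792 on replicate 4, against 3626 to 3728. Without the array in question the calls of Lsm2, Prpf39 and Snrnp48 were kept.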

How the results depend on the processing

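With each of the 8 arrays left out in turn, 46 of 53 calls held, and the 7 lost were 4 higher and 3 lower ones. Leaving out 1 array gave 13 to 18 higher and 33 to 36 lower genes, and 3 to 6 higher genes with at least a 2-fold change against 5 with all arrays, the 3 without 8-cell replicate 4. With spike-in scaling 13 genes were lower, 9 higher and 6 lower by at least 2-fold, the median was 0.138, 32 other splicing genes and 2993 of all genes were lower, and 15 genes turned direction without a call, among the genes named by the rule Hnrnpk (0.219), Srsf3 (0.179) and U2af2 (0.267). Quantile normalization turned Hnrnpk (0.137), Hnrnpdl (0.078) and Sf3a2 (0.075), none called. Averaging the probe sets of each gene left 3 genes lower by at least 2-fold and turned 16 genes, of which Srsf10 (0.637), Prpf31 (-0.455) and Sf3b4 (-0.295) were called. Hnrnpk (0.169), Prpf19 (0.119), Prpf38a (-0.075), Prpf4b (0.045), Prpf6 (-0.385), Srsf3 (0.093), Hnrnpdl, Hnrnpl, Lsm6, Sf3a2, Sf3b3, Snrnp27 and Snrpb2 turned without a call. Without the _x_at, _s_at and _a_at types, 70 genes were tested, 21 were lower, 8 higher and 7 lower by at least 2-fold, and the median was 0.027. With other probe sets then standing for them, 11 genes turned: Hnrnpa1 (0.525), Hnrnpc (1.356), Hnrnpdl (0.830), Hnrnpk (1.197), Snrnp40 (0.468), Snrnp48 (0.946) and Srsf3 (1.117) with a call, Hnrnpa2b1 (0.072), Hnrnpr (0.233), Prpf19 (0.037) and Srsf10 (0.361) without. Prpf6 ranged from -0.002 without 8-cell replicate 1 to 0.109 without 8-cell replicate 3. Same-numbered arrays did not deviate together (correlations of -0.035 to -0.024), and with a replicate block 14 genes were higher and 33 lower, with Lsm8, Srsf5, Snrpd3, Srsf10, Sf3b2 and Sf3b6 no longer called. The cause of these shifts was not tested beyond the change of probe set. Median scaling gave 18 higher and 32 lower genes. Other filters, added constants, array weights and an intensity trend gave 15 to 21 higher and 34 to 36 lower genes.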
